A study of Mus musculus with 8 samples.

Results

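The prostaglandin genes described here were 9 genes of one pathway: the cyclooxygenases Ptgs1 and Ptgs2, the terminal synthases Ptges, Ptgis and Ptgds, the degrading enzyme Hpgd and the prostaglandin E2 receptors Ptger2, Ptger3 and Ptger4. They were picked by symbol among the 31053 genes in the files, and all 9 were found. The rule used no measured value, but earlier results of these data were known when the genes were chosen. Cyclooxygenases turn arachidonic acid into prostaglandin H2, from which Ptges makes prostaglandin E2, Ptgis makes prostacyclin and Ptgds makes prostaglandin D2. Hpgd oxidizes prostaglandins to inactive products, and the receptors encoded by Ptger2 and Ptger4 raise cyclic AMP in the receiving cell, whereas that of Ptger3 mostly lowers it. In skin the pathway is known for inflammation, vasodilation, pain and the immune functions of the epidermis, with Ptgs1 regarded as the constitutive and Ptgs2 as the inducible cyclooxygenase.

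Single-cell libraries (10x Genomics, 3′ chemistry) were made from 4 mm biopsies of dorsal skin of female BALB/c mice, an albino strain, aged 14 to 16 weeks. In 4 libraries the skin had been injected subcutaneously with PBMCsec, the secretome of irradiated human peripheral blood mononuclear cells, and in 4 libraries with a vehicle. The labels number the libraries 1 to 4 within a group and give nothing on wounding, time after injection or the control solution, and the series carries the title of a study on mast cells and basophils although the paper lists it among its data. They do not say whether each library came from its own mouse, so p-values measure the spread between these libraries.

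The values are counts of unique molecular identifiers (UMIs), which mark single captured RNA molecules. Libraries held 14753926 to 37880651 UMIs, and 6150 of 26231 barcodes (23.4%) passed the cell filter, 151 to 1659 a library. Barcodes over the mitochondrial limit of 5% made up 51.5% to 73.0% of a library. The smallest libraries were vehicle 1 and vehicle 2, with 151 and 208 cells. Among kept cells, 4 barcode sequences occurred in more than 1 library. Clustering, from which the 9 genes and the pathway genes named further on were left out, gave 36 clusters, and markers named 12 classes: 1483 fibroblasts (FBs), 921 keratinocytes (KCs), 1619 hair follicle cells (HFs), 697 T cells, 357 dendritic cells (DCs), 162 macrophages (Macro), 119 neutrophils, 88 group 2 innate lymphoid cells (ILC2), 83 endothelial cells (ECs), 65 melanocytes (Mel), 38 smooth muscle cells and pericytes (SMCs/PCs) and 27 mast cells and basophils. The other 491 cells, in 5 clusters, were left unnamed.

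Both cyclooxygenase promoters are shown because their 2 genes were highest in different cell classes, although KCs and FBs held UMIs of both. Those of Ptgds and Tyr (tyrosinase, a pigment enzyme) are shown because these genes had nearly the same pattern over clusters. RefSeq promoters of GRCm38.p6 run from 250 bases before to 50 bases after the start of a gene, and 8 of the 9 genes had an entry, all but Ptgis. Each is given 5′ to 3′ on the strand of its gene, with every match to a searched motif in capitals. The Ptgs1 promoter lies at chr2:36230176-36230475 (plus strand), that of Ptgs2 at chr1:150099781-150100080 (plus strand), that of Ptgds at chr2:25469700-25469999 (minus strand) and that of Tyr at chr7:87493463-87493762 (minus strand). The RefSeq start used for Ptgds lies inside the gene span that GENCODE gives, whose outermost transcript starts further upstream.
Ptgs1: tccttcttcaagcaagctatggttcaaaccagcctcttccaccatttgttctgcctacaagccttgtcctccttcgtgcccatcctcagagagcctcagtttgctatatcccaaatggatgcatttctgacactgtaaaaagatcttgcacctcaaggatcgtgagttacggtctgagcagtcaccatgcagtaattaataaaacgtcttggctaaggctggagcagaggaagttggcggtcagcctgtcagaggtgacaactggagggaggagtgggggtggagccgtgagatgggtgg
Ptgs2: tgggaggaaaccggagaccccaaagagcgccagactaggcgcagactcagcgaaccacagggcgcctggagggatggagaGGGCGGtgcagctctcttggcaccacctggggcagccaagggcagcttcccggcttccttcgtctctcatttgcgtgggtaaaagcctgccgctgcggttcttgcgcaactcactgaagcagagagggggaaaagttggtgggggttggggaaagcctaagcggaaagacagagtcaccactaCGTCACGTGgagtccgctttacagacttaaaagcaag
Ptgds: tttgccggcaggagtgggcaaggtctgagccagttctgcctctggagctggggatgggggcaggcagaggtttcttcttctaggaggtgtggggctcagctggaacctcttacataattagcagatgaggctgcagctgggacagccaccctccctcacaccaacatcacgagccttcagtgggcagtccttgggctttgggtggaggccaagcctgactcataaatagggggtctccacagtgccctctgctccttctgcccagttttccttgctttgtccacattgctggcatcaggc
Tyr: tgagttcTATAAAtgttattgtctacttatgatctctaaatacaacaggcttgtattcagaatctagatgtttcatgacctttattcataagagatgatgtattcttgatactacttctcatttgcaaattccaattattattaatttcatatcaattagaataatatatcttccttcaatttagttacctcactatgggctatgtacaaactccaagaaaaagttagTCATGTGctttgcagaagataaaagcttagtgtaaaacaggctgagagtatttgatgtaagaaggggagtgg

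Both strands were searched for the TATA box TATAAA, the GC box GGGCGG, the E-box CACGTG, the core TGACG of the cyclic AMP response element and the M-box core TCATGTG. The Ptgs2 promoter held a GC box starting 170 bases before the start of the gene (position -170, with the first base of the gene as 1 and no position 0). It also held the core TGACG, on the reverse strand, at position 14 and an E-box at position 17 that overlaps this core. The Ptgs1 and Ptgds promoters held none of these letters. The Tyr promoter held TATAAA at position -243 and the M-box core at position -22. Among all 32851 RefSeq promoters of this length, 13.6% held TATAAA, 35.7% GGGCGG, 7.15% CACGTG, 20.8% TGACG and 3.77% TCATGTG. A match is a run of letters and not a measured site of binding.

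The classes carried the genes unequally. Among classes with enough cells, Ptgs1 was highest in DCs and KCs, Ptgs2 in neutrophils, Ptges in KCs and FBs alike, Ptgis and Hpgd in FBs, Ptgds in Mel, Ptger4 in KCs and T cells and Ptger3 in FBs, while Ptger2 rested on few UMIs. Levels of classes are counts per 1000000 UMIs of that class (CPM), computed per library in libraries with at least 10 cells of the class, and are compared between classes for 1 gene, never between genes. With summed counts, fewer cells that express a gene and less RNA per cell cannot be told apart, so the share of cells with at least 1 UMI is given beside the level, with its exact 95% interval, which covers counting error only. Where no UMI was found, the limit given is 3 cells of those examined, and it limits cells with a UMI, not cells that express the gene. Such shares also depend on depth: the median was 11006 UMIs per cell in KCs, 9383 in HFs, 9085 in FBs, 8019 in DCs, 5796.5 in Macro, 3288 in T cells, 2349 in Mel and 1537 in neutrophils.

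**Figure D1:**
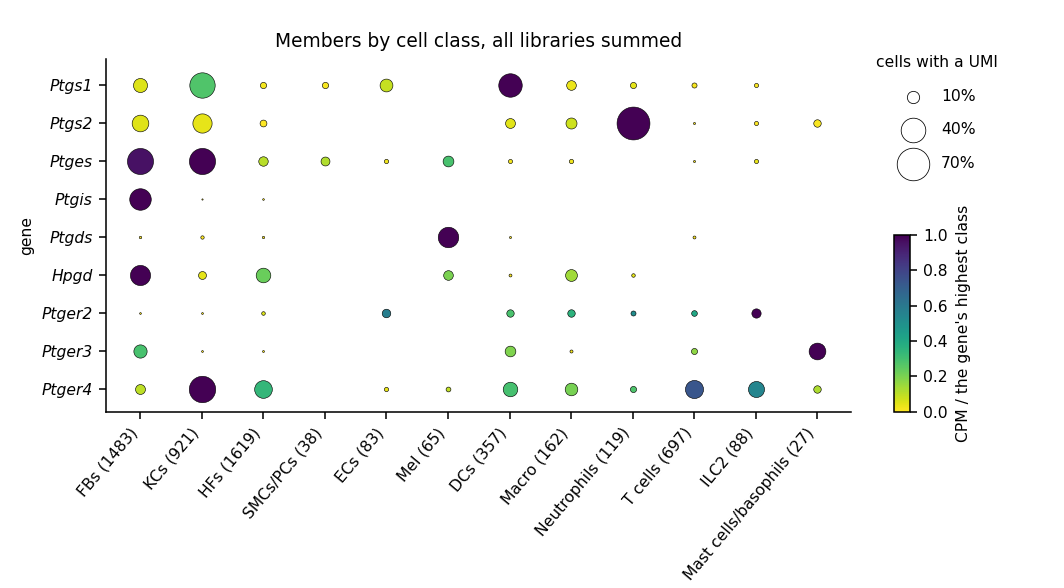
Each of the 9 genes (vertical axis) in 12 cell classes (horizontal axis, with the number of cells). The circle area is the share of cells with at least 1 UMI and the colour is the CPM of the class divided by the gene's highest class, all libraries summed; Ptgs2 stands out in neutrophils (71.4% of cells) and Ptgis in FBs (30.6%).

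Ptgs1 (chr2:36230426-36252272, plus strand, with gene positions from GENCODE on GRCm38) encodes the constitutive cyclooxygenase. In DCs it stood at 356 ± 169 CPM (SD, n = 7 libraries), with 239, 184, 308 and 385 CPM in PBMCsec libraries 1 to 4 and 699, 395 and 285 CPM in vehicle libraries 1, 3 and 4. Vehicle library 2 had 9 DCs, too few for this mean, and 1042 CPM. In KCs it stood at 83.4 ± 28.7 CPM (SD, n = 8), where PBMCsec libraries lay between 77.9 and 104 CPM and vehicle libraries between 34.2 and 106 CPM. Every library with enough cells of both classes was thus higher in DCs, 7 of 7, by 1.79 ± 0.34 on the log2 scale (SE; pseudocount of 10 CPM). ECs stood at 27.4 ± 21.3 CPM (n = 6), neutrophils at 24.2 ± 39.1 CPM (n = 4) from 3 UMIs and FBs at 21.7 ± 10.1 CPM (n = 8). Ptgs1 UMIs were found in 36.4% of DCs (31.4% to 41.6%) and 42.6% of KCs (39.3% to 45.8%), against 1.72% of T cells. The share was thus higher in KCs, the deeper class, and the CPM in DCs. Thinning each cell to 1000 UMIs turned this order, to 19.9% of DCs and 8.26% of KCs.

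Within DCs the gene belonged to 1 of the 2 clusters. Cluster 18 (124 cells), led by Cd207, which encodes langerin and marks Langerhans cells, held 39.5% of all Ptgs1 UMIs at 1046 CPM, and 93.5% of its cells (87.7% to 97.2%) had at least 1. Cluster 11 (233 cells), led by Lyz1, Cd209a and Mgl2, held 11.9 CPM of Ptgs1, and 6.01% of its cells had a UMI. In cluster 18 the level was 913, 751, 926 and 1086 CPM in PBMCsec libraries 1 to 4 and 1901, 1717, 967 and 799 CPM in vehicle libraries 1 to 4, where the 2 highest values rest on 6 and 4 cells. In cluster 11 no library exceeded 54.6 CPM, so that the 2 clusters did not overlap. The genes Ltc4s, leukotriene C4 synthase, and Hpgds, the hematopoietic prostaglandin D synthase, were also among the 10 leading genes of cluster 18. Among KCs, Ptgs1 was highest in cluster 6, led by Krt1 and Krt10 of the suprabasal layers, with 190 CPM and 72.6% of 277 cells (66.9% to 77.7%). It was 36.3 CPM in cluster 2, led by genes that include Krt14 of the basal layer, and the unnamed cluster 22, led by Cst6, Krt79 and Sprr1a, held 158 CPM. Between the EC clusters, blood vessel genes (Fabp4, Plvap, Cd36) led cluster 34, with 69.6 CPM from 15 UMIs, and lymphatic genes (Ccl21a, Mmrn1, Lyve1) led cluster 32.

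**Figure D2:**
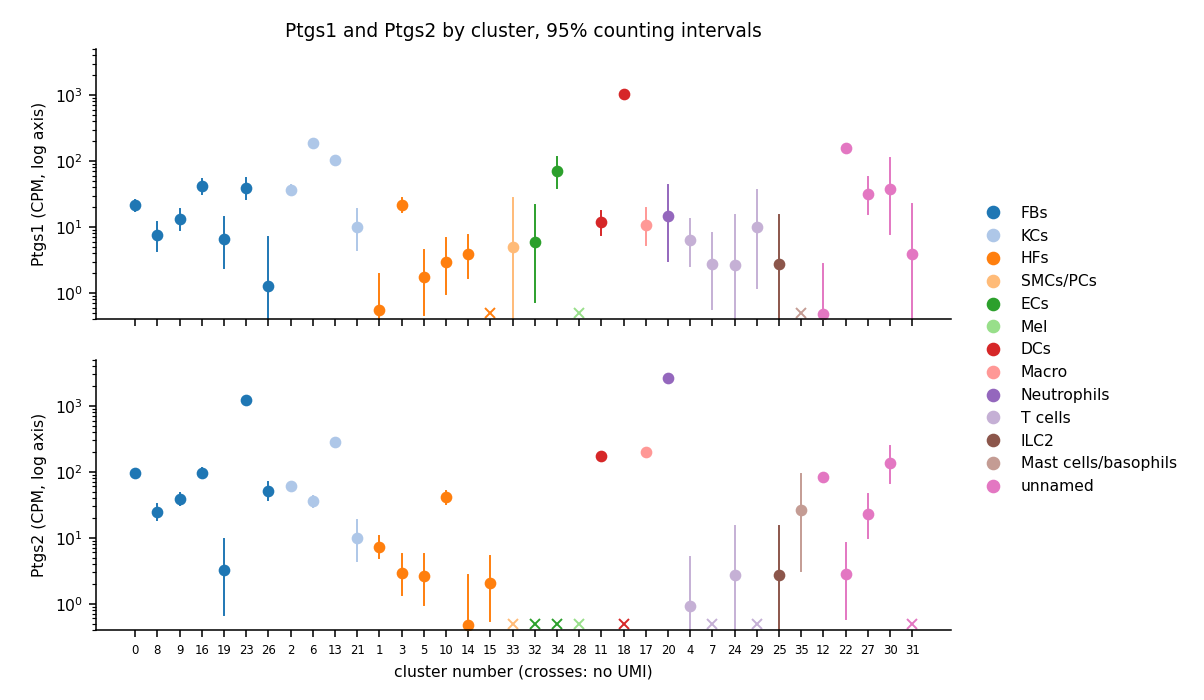
CPM of Ptgs1 (upper panel) and Ptgs2 (lower panel) on log axes in the 36 clusters, ordered and coloured by class, all libraries summed. Bars are exact 95% counting intervals and crosses are clusters without a UMI; the highest Ptgs1 value is cluster 18 of DCs (1046 CPM), where Ptgs2 has no UMI, and the highest Ptgs2 values are neutrophils (cluster 20, 2629 CPM) and FB cluster 23 (1216 CPM).

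Ptgs2 (chr1:150100031-150108227, plus strand), the inducible cyclooxygenase, was highest in neutrophils, at 2592 ± 1253 CPM (SD, n = 4 libraries). The 4 libraries with at least 10 neutrophils held 719, 3301 and 3275 CPM (PBMCsec 1, 2 and 4) and 3073 CPM (vehicle 2), so that 3 were close together and PBMCsec library 1 was low. A UMI was found in 71.4% of 119 neutrophils (62.4% to 79.3%) despite their low depth, and in 64.6% after thinning, against 0.287% of T cells. Neutrophil S100a8 and S100a9 were among the leading genes of this cluster, as was Il1b. DCs (169 ± 270 CPM, n = 7), Macro (156 ± 206 CPM, n = 6), FBs (116 ± 115 CPM, n = 8) and KCs (88 ± 73.3 CPM, n = 8) had SDs close to or above their means. HFs followed at 6.79 CPM, lower than KCs in 8 of 8 libraries by 2.20 ± 0.45 on the log2 scale, and no UMI was found in 83 ECs, which allows a share of up to 3.61%, or in 65 Mel (up to 4.62%).

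The classes below neutrophils differed in how their Ptgs2 was spread. In DCs 6.44% of cells and in Macro 8.02% had a UMI, 5 cells held at least 50% of the Ptgs2 UMIs of both classes together, and 1 cell alone had 113. No Ptgs2 UMI was found in the 124 cells of cluster 18, where Ptgs1 was highest, which allows a share of up to 2.42%. In FBs 18.4% of cells had a UMI, and cluster 23 held 55.2% of the FB UMIs in 92 of 1483 cells, at 1216 CPM and with 82.6% of its cells positive (73.3% to 89.7%). This cluster was led by Ptx3, Ccl2, Cxcl1, Ccl7, Has1 and Il6, inflammatory and matrix genes. It was found in 5 libraries, at 3703, 1116 and 459 CPM in PBMCsec libraries 1, 3 and 4 and 240 and 362 CPM in vehicle libraries 3 and 4. Among KCs, Ptgs2 was highest in cluster 13, at 286 CPM and in 52.6% of 211 cells (45.6% to 59.5%). Cluster 13 was led by Serpinb2, Fosl1 and Igfbp3 and included Krt16, a keratin of activated epidermis, among its 10 leading genes.

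Ptges (chr2:30889471-30929863, minus strand), which encodes microsomal prostaglandin E synthase, was at 99.5 ± 33.1 CPM in KCs and 88.6 ± 27.7 CPM in FBs (SD, n = 8 each), and the libraries were split, 4 of 8 higher in KCs. The difference was 0.14 ± 0.12 on the log2 scale (SE), which an exact permutation test over libraries did not separate from 0 (p = 0.438). UMIs were found in 45.1% of KCs and 44.8% of FBs, against 0.287% of T cells. No neutrophil had one, which allows up to 2.52%. HFs were lower at 17.5 ± 16.5 CPM (n = 8), with 5.93% of cells. The highest named cluster was again KC cluster 13, at 141 CPM and 68.7% of cells. Within FBs the level was 86.1 to 110.1 CPM in clusters 0, 9, 16 and 23, 63.9 CPM in cluster 8 and 33.5 to 35.2 CPM in clusters 19 and 26.

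Ptgis (chr2:167191805-167240604, minus strand), prostacyclin synthase, was found almost only in FBs, which held 98.5% of its 805 UMIs among kept cells. The FB level was 74.5 ± 33.6 CPM (SD, n = 8), with 38.2, 61.3, 57.6 and 53.9 CPM in PBMCsec libraries 1 to 4 and 115, 137, 70.3 and 62.7 CPM in vehicle libraries 1 to 4. UMIs were found in 30.6% of FBs (28.3% to 33.0%), in 1 of 921 KCs and in none of 697 T cells, which allows up to 0.430%. The FB level exceeded that of KCs in 8 of 8 libraries by 2.97 ± 0.19 on the log2 scale. Clusters of FBs differed: cluster 16 (Mrgprg, Smpd3) held 127 CPM and cluster 23 held 108 CPM, whereas cluster 8 held 9.33 CPM, with 3.69% of its 244 cells positive. The 3 genes whose cluster pattern was most like that of Ptgis, by Pearson's r of log2(CPM + 10) over 36 clusters, were Islr2 (0.97), AW551984 (0.97) and Tmeff2 (0.96).

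Ptgds (chr2:25466709-25470046, minus strand), the lipocalin-type prostaglandin D synthase, was highest in Mel. The 3 libraries with at least 10 cells named Mel held 2340 CPM (PBMCsec 4), 3035 CPM (vehicle 3) and 170 CPM (vehicle 4). Their mean was 1848 ± 1494 CPM. In these libraries only 6, 9 and 5 kept barcodes had a UMI of at least 3 of 6 melanocyte markers. Cells named Mel by their cluster were therefore not all marked as melanocytes one by one. Of the 65 cells named Mel 27.7% (17.3% to 40.2%) had a UMI, against 0.371% of HFs. Of the class's 257 UMIs 2 cells held at least 50%, 110 of them in 1 cell. These 257 UMIs were 83.2% of the gene's total in kept cells, with 8.41% in KCs and 4.53% in FBs, from 7 and 6 cells. Its cluster pattern was nearest to Tyr, Trpm1 and Slc45a2 (r = 0.99 each), genes of pigment cells. All 36 clusters count once in such a value, and the single Mel cluster sets it. The class depended on the processing: at a clustering resolution of 0.5 no cluster was named Mel. Without the cells of highest doublet score 32 cells named Mel remained, and no library had 10 of them.

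The kept cells held little of the Ptgds measured. Of 25312 Ptgds UMIs in all barcodes, 1.22% were in kept cells and 90.5% in barcodes over the mitochondrial limit, where 46.1% of the UMIs of all genes lay. For the other 8 genes the kept share was 27.0% to 44.9%, beside 23.8% for all genes. Barcodes with a UMI of at least 3 of the 6 melanocyte markers (Dct, Tyrp1, Pmel, Mlana, Tyr and Mitf) numbered 346. Of these, 36 were kept, fewer than the 65 cells named Mel, and 287 were over the mitochondrial limit. The 346 barcodes held 99.2% of all Ptgds UMIs (97.5% to 99.5% in each library) at 6959 CPM, and 78.6% of them had a UMI. The other 25885 barcodes held 0.991 CPM, and 0.676% of them had a UMI. Per library the marked barcodes held 3257, 2096, 5160 and 6797 CPM in PBMCsec libraries 1 to 4 and 1656, 11952, 4422 and 9212 CPM in vehicle libraries 1 to 4. The groups overlapped, the lowest and the highest value both being of vehicle libraries.

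**Figure D3:**
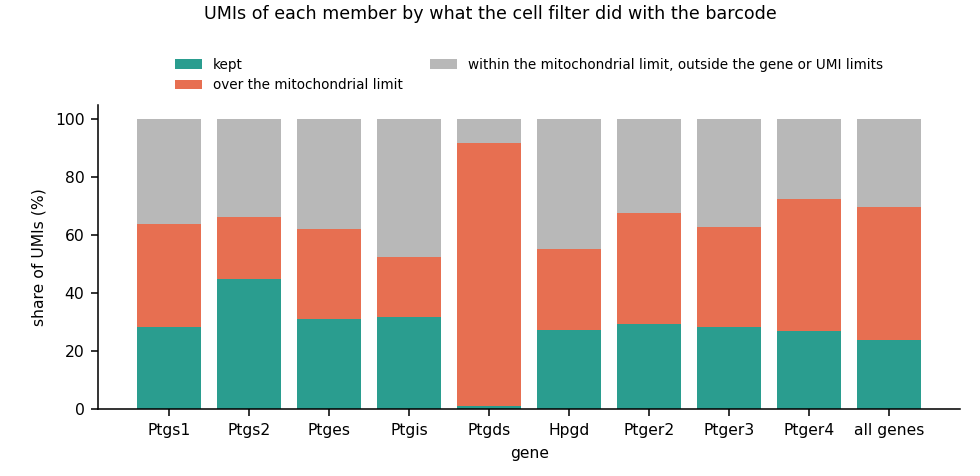
Share of each gene's UMIs (vertical axis, %) in barcodes that were kept, that were over the mitochondrial limit, or that were within it but outside the limits on genes or UMIs, all 8 libraries summed; the last bar is all genes. Ptgds is the gene whose UMIs lie mostly (90.5%) over the mitochondrial limit.

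Hpgd (chr8:56294585-56321043, plus strand), the dehydrogenase that starts prostaglandin breakdown, was highest in FBs at 97 ± 71.4 CPM (SD, n = 8). Libraries differed widely, with 59.1, 27.4, 93.4 and 123 CPM in PBMCsec libraries 1 to 4 and 21.3, 83.2, 246 and 123 CPM in vehicle libraries 1 to 4. UMIs were found in 26.8% of FBs and 14.1% of HFs (25.7 ± 17.4 CPM, n = 8), and in none of 697 T cells. Cluster 8 of FBs, whose leading genes include Cxcl12, Tnmd and Lepr, held 49.5% of all Hpgd UMIs at 497 CPM, and 68.4% of its 244 cells had one (62.2% to 74.2%). This was the FB cluster with very little Ptgis. Clusters 19 (Ednrb, Col11a1, Lrrc15) and 26 (Cpz, Mfap4, Col1a1) followed at 191 and 142 CPM. The closest cluster patterns were those of Slit2 (0.83), Mme (0.82) and Tnmd (0.82). Over all FBs together, 11.9% of the 454 with a Ptgis UMI had Hpgd, against 33.3% of the 1029 without. The first were deeper (median 9799 against 8629 UMIs). These FBs include cluster 8, so the shares restate in part the difference between clusters, and they were not tested.

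Detection beside Ptgs2 was described in FBs and KCs, the 2 classes that held most of its UMIs. Of 273 FBs with a Ptgs2 UMI 52.4% had Ptgis and 55.3% had Ptges, against 25.7% and 42.4% of the other 1210, at median depths of 9189 and 9084 UMIs, while Hpgd was found in 14.3% against 29.6%. Of 225 KCs with Ptgs2 61.3% had Ptges and 64.4% had the receptor Ptger4, against 39.8% and 40.1% of the other 696, at median depths of 12245 and 10502 UMIs. Of 130 DCs with Ptgs1, 2 had Ptgs2. These cells share libraries and clusters, so the shares are descriptions with no test.

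Of the receptors, Ptger4 (EP4, chr15:5206661-5244187, minus strand) was the most widely found. It stood at 118 ± 83.5 CPM in KCs and 74.2 ± 23.4 CPM in T cells (SD, n = 8 each), then at 61.0 ± 52.8 CPM in ILC2 (n = 4), 35.2 ± 17.7 CPM in HFs (n = 8) and 29.4 ± 9.34 CPM in DCs (n = 7). KCs exceeded T cells in 6 of 8 libraries, and the mean of KCs was drawn up by vehicle library 2 (303 CPM). UMIs were found in 46.0% of KCs, 21.7% of T cells and 1 of 65 Mel. After thinning, KCs (9.14%) and T cells (9.09%) were level. Cluster 13, the KC cluster with the most Ptgs2, was also the highest for Ptger4 at 224 CPM and 75.8% of cells (69.5% to 81.4%). The T cell clusters 4 (Ms4a4b, Ccl5) and 7 (Ctla4, Icos) stood at 92.1 and 91.1 CPM, and the unnamed cluster 31, led by Gzma, Ccl5 and Ncr1, at 123 CPM.

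Ptger3 (EP3, chr3:157566892-157645888, plus strand) had 366 UMIs in kept cells, 68.3% of them in FBs, at 19.7 ± 12.5 CPM (SD, n = 8). DCs held 13.4 ± 9.37 CPM (n = 7) and T cells 11.3 ± 8.84 CPM (n = 8), against 4 UMIs in 1619 HFs. By cluster it was highest in the unnamed cluster 27 (Slc26a7, Crabp1, Wif1, Inhba), at 96.3 CPM with a UMI in 21 of 70 cells (19.6% to 42.1%). Mast cells and basophils, too few in every library for a mean, held 5 UMIs in 27 cells, a pooled level of 65 CPM (21.1 to 152) against 19 CPM in FBs, and with the mitochondrial limit of 10% they were the leading class. FB clusters 8 and 19, the 2 highest for Hpgd, held 64.4 and 58.2 CPM, and the T cell cluster 29, led by Trdc and Tcrg-C1 of gamma delta T cells, 54.6 CPM from 11 UMIs. Within DCs, cluster 18 held 29.6 CPM and cluster 11 held 4.13 CPM.

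Ptger2 (EP2, chr14:44988195-45003820, plus strand) was the scarcest, with 103 UMIs in kept cells. ILC2 held 20.9 ± 14.8 CPM (SD, n = 4) from 7 UMIs, which is near the level that 1 UMI gives in a library, and the order of its classes rests on single counts. Most of its UMIs lay in the unnamed cluster 12 (Tagln, Dio3, Acta2), with 22.3%, in the T cell cluster 7, with 17.5%, and in DC cluster 11, with 15.5%. No UMI was found in cluster 18, which allows a share of up to 2.42% of its cells, and KCs held 2 UMIs in 921 cells.

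The order of the classes was tested over libraries for each pair of neighbours, with an exact two-sided sign-flip permutation test of log2(CPM + 10) and adjustment over the 78 of 81 pairs that could be tested. No pair passed. The smallest adjusted p was 0.305, for Ptgis in FBs over KCs and for Ptgs2 in KCs over HFs. Both pairs had an unadjusted permutation p of 0.00781, the smallest that 8 libraries allow, and the same order in 8 of 8 libraries. With 78 pairs, a single pair at that p could not pass by itself. Some of the 78 pairs also had a level of 0 CPM in both classes. Not passing therefore does not show equal levels. For Ptgs1 in DCs over KCs the permutation p was 0.0156 (adjusted p = 0.348), the smallest that 7 libraries allow. Neighbours such as FBs and KCs for Ptgs2 (5 of 8 libraries higher in FBs) or FBs and DCs for Ptger3 (4 of 7 libraries higher in FBs) differed by less than their spread.

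PBMCsec and vehicle were compared in 5 classes and in all kept cells, on UMIs summed per library and class, with edgeR's quasi-likelihood test adjusted over all genes tested. DCs and Macro were tested as 1 joint class. Macro alone had too few cells in vehicle libraries 1 and 2 (6 each), whereas DCs alone had enough cells for a test. DCs were not tested alone. Levels from here on are CPM scaled by edgeR's TMM factors. No gene of the 9 was called in any class. Of all genes tested, edgeR called 0.00% in FBs, KCs, HFs, T cells, DCs and Macro, and all kept cells at an adjusted p under 0.05. The shares under an unadjusted p of 0.05 were 2.36% in FBs, 1.09% in KCs, 3.36% in HFs, 3.29% in T cells, 4.59% in DCs and Macro and 2.54% in all kept cells. Of the 9 genes, 6 had enough counts in FBs, 4 in KCs, 4 in HFs, 1 in T cells, 3 in DCs and Macro and 9 in all kept cells. At that unadjusted limit stood 1 of 6 in FBs, 2 of 4 in HFs, 1 of 3 in DCs and Macro and none in KCs, T cells or all kept cells. DESeq2 called none of the 9 in any class. Its unadjusted p was under 0.05 for 1 of 6 in FBs, 0 of 4 in HFs and 1 of 3 in DCs and Macro. The median log2 difference (PBMCsec minus vehicle) of the tested prostaglandin genes was -0.24 in FBs, 0.04 in KCs, 1.17 in HFs, 0.05 in T cells, 0.41 in DCs and Macro and -0.02 in all kept cells, and that of all genes lay between -0.02 and 0.01.

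**Figure D4:**
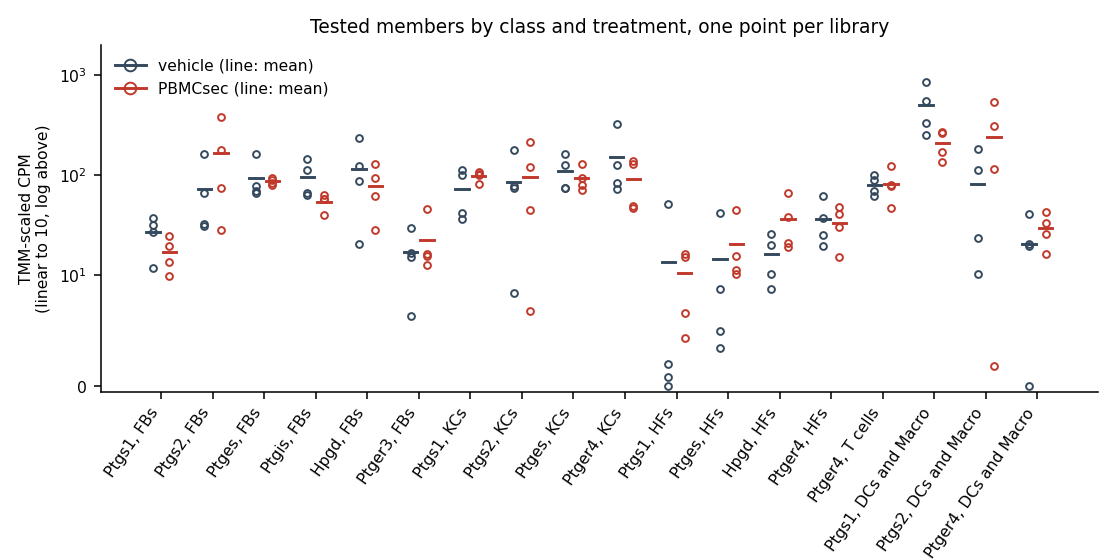
TMM-scaled CPM (vertical axis, linear up to 10 and logarithmic above) of each tested gene and class, 1 point per library, 4 PBMCsec and 4 vehicle libraries, with lines at the means. The groups overlap for each of the 18 pairs of gene and class; Ptgs1 in DCs and Macro, the pair with the smallest edgeR p, has means of 209.9 and 496 CPM.

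In DCs and Macro, Ptgs1 was at 171, 135, 264 and 269.8 CPM in PBMCsec libraries 1 to 4 and at 548, 856, 330 and 252 CPM in vehicle libraries 1 to 4. All PBMCsec libraries lay below the vehicle mean, and the groups overlapped through vehicle library 4. The means were 209.9 ± 67.7 and 496 ± 270.2 CPM (SD), a log2 difference of -1.19 ± 0.35 (SE) with an unadjusted p of 0.0044 and an adjusted p of 0.725 (edgeR), and the exact permutation test over libraries gave p = 0.0857. The Cd207 cluster 18, which held 96.8% of the Ptgs1 UMIs of this joint class, made up 13.8%, 17.6%, 27.3% and 18.8% of its cells in PBMCsec libraries 1 to 4 and 26.1%, 26.7%, 31.4% and 25.9% in vehicle libraries 1 to 4 (means of 19.4% ± 5.73 and 27.5% ± 2.62, exact permutation p = 0.114). Inside cluster 18 the log2 difference was -0.46 over all 8 libraries (exact permutation p = 0.257). In the 5 libraries with at least 10 of its cells it was 0.14, PBMCsec library 2 and vehicle libraries 1 and 2 being left out. Outside the cluster the unscaled level of Ptgs1 was 9.76 ± 4.79 CPM after PBMCsec and 16.3 ± 11.7 CPM after vehicle. These comparisons inside and outside clusters were added after the data had been seen.

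**Figure D5:**
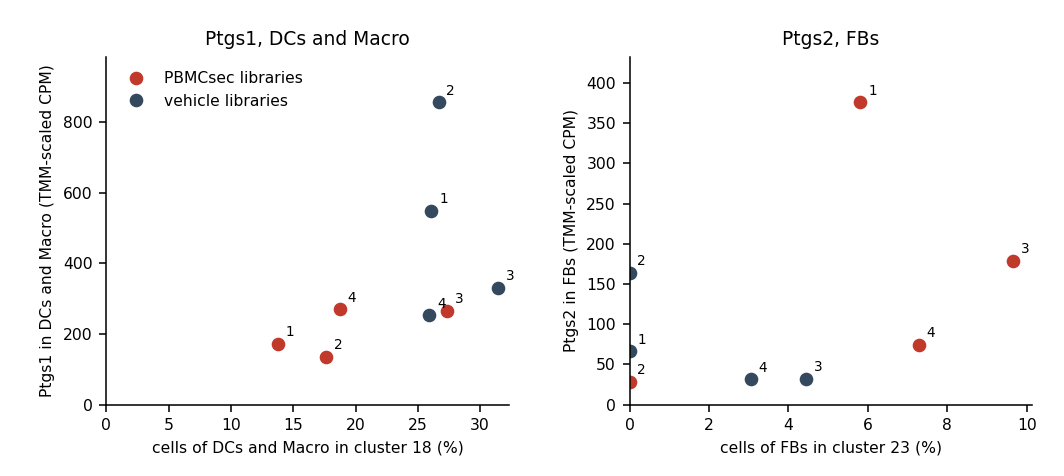
Left, TMM-scaled CPM of Ptgs1 in DCs and Macro (vertical axis) against the share of their cells in cluster 18 (horizontal axis, %). Right, TMM-scaled CPM of Ptgs2 in FBs against the share of FBs in cluster 23; each point is 1 library with its number, and 3 libraries had no cell of cluster 23.

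Ptgs2 in DCs and Macro was at 308, 532, 115 and 1.85 CPM in PBMCsec libraries 1 to 4 and at 113, 182, 10.2 and 23.5 CPM in vehicle libraries 1 to 4. Both groups spanned more than 10-fold, and the log2 difference of 1.83 ± 0.97 had an unadjusted edgeR p of 0.079 and an exact permutation p of 0.571. In FBs, Ptgs2 was at 376, 28.1, 178 and 74.7 CPM after PBMCsec and at 66.1, 164, 32.2 and 31.3 CPM after vehicle, a log2 difference of 1.51 ± 0.71 with an unadjusted edgeR p of 0.0537 and an exact permutation p of 0.4. Without PBMCsec library 1 it was 0.76 and without vehicle library 2 it was 2.12. The groups overlapped, with PBMCsec library 2 the lowest of all 8. Cluster 23 made up 5.69% ± 4.11 of FBs after PBMCsec and 1.87% ± 2.24 after vehicle (SD, n = 4 each, exact permutation p = 0.2). Inside it the unscaled level of Ptgs2 was 3703, 1116 and 459 CPM in PBMCsec libraries 1, 3 and 4 (10, 50 and 11 cells). It was 240 and 362 CPM in vehicle libraries 3 and 4 (16 and 5 cells). Outside it the level was 70.6 ± 46.6 CPM after PBMCsec and 68.3 ± 61.0 CPM after vehicle. There vehicle library 2 stood at 155 CPM, with 21 of its 26 UMIs in 1 cell. Vehicle libraries 1, 3 and 4 stood at 68.3, 24.1 and 26.2 CPM. The parts of share and level in the FB difference were not tested.

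Ptgis in FBs was at 39.6, 62.8, 58.1 and 57.0 CPM after PBMCsec and at 112, 145, 66.8 and 62.5 CPM after vehicle. All PBMCsec libraries lay below the vehicle mean, and PBMCsec library 2 and vehicle library 4 were about equal. The log2 difference was -0.69 ± 0.28 with an unadjusted p of 0.0313 and an adjusted p of 1.0 (edgeR), and the exact permutation test gave p = 0.0571. The 2 vehicle libraries with the highest level had 28 and 21 FBs, from which 27 and 23 Ptgis UMIs were counted. Hpgd in FBs (-0.67 ± 0.51), Ptgs1 (-0.43 ± 0.38), Ptger3 (-0.06 ± 0.44) and Ptges (-0.01 ± 0.27) had log2 differences with no unadjusted edgeR p under 0.05.

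In HFs the fitted log2 differences of the 4 tested genes were positive, although for Ptger4 (0.20 ± 0.33, and -0.02 without PBMCsec library 3) the mean was lower after PBMCsec (33.5 against 36.2 CPM). Ptgs1 was at 4.36, 15, 16.3 and 6.59 CPM after PBMCsec and at 51.8, 0, 2.02 and 0.861 CPM after vehicle, where the first value came from 10 HFs. The fitted log2 difference was 2.01 ± 0.91 (unadjusted edgeR p = 0.0472, exact permutation p = 0.4), whereas the mean of the libraries was higher after vehicle (13.7 against 10.6 CPM) through vehicle library 1. In that library 7 of the 10 HFs were in cluster 3, which held 77.6% of the Ptgs1 and 69.6% of the Ptges UMIs of HFs, and this cluster made up 11.6% to 28.6% of HFs in the other vehicle libraries and 14.6% to 40.8% in the PBMCsec libraries. Its part in these differences was not tested. Ptges was at 11.3, 45.1, 15.5 and 10.3 CPM against 41.4, 8.76, 4.95 and 3.45 CPM, a log2 difference of 1.46 ± 0.64 (unadjusted edgeR p = 0.043, exact permutation p = 0.371), and vehicle library 1 again stood high. Hpgd was at 66.3, 21.0, 38.2 and 19.3 CPM against 10.4, 8.76, 26.0 and 20.2 CPM, a log2 difference of 0.88 ± 0.41. Each adjusted p was 1.0 (edgeR). With DESeq2 none of the 4 genes had an unadjusted p under 0.05 in HFs.

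In KCs the log2 differences were 0.31 ± 0.32 for Ptgs1, 0.23 ± 0.61 for Ptgs2, -0.16 ± 0.32 for Ptges and -0.62 ± 0.48 for Ptger4. Ptger4 was at 137, 47.2, 129 and 49.1 CPM after PBMCsec and at 126, 323, 84.1 and 72.0 CPM after vehicle, and vehicle library 2 was the highest of all 8 (without it the fitted log2 difference was 0.14). In T cells Ptger4 was at 81.4 ± 30.9 CPM after PBMCsec and 80.4 ± 18.2 CPM after vehicle (SD, n = 4 each), a log2 difference of 0.05 ± 0.29. Whether a gene's difference itself differed between 2 classes was tested 19 times by exact permutation of the treatment labels. None passed: the smallest p was 0.0857, for Ptgs1 in KCs against DCs and Macro, and the smallest adjusted p was 0.620. Over 19 tests, a single test at the smallest p that 4 against 4 libraries allow could not pass by itself. Not passing therefore does not show equal differences.

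A list of 42 other gene symbols was followed in the same fits, and 41 were in the files. It covered prostaglandin and leukotriene synthesis, transport and reception, with further lipoxygenases. Fam213b and Prxl2b on the list are symbols of the same gene. No gene of the list was called in any class. In FBs 9 of 18 tested genes were lower and 9 higher after PBMCsec, in KCs 11 and 6 of 17, in HFs 13 and 5 of 18, in T cells 3 and 1 of 4, in DCs and Macro 9 and 5 of 14, and in all kept cells 16 and 15 of 31. In DCs and Macro 4 of 14 had an unadjusted edgeR p under 0.05, of which 3 had groups that did not overlap, as did 2.71% of all 5602 genes tested there. Pla2g4a, the phospholipase that frees arachidonic acid, was at 16.6 to 23.0 CPM after PBMCsec and 27.3 to 35.2 CPM after vehicle, a log2 difference of -0.68 ± 0.30. Ltc4s was at 187 to 313 against 316 to 1129 CPM (-1.10 ± 0.36). Cbr2, a carbonyl reductase that was named because it passed that limit, went the other way, at 56.4 to 114 against 11.7 to 54.6 CPM (1.2 ± 0.41). Hpgds was at 268 ± 117 against 453 ± 122 CPM (-0.73 ± 0.31). Ltc4s and Hpgds were leading genes of cluster 18, whose share of this class moved with them, and its part in these differences was not tested. The smallest adjusted p of the list was 0.937.

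The fixed partners among the list genes are given here with levels for only some of the classes in which they were tested. Ptges3, the cytosolic prostaglandin E synthase, was at 160.4 ± 36.1 CPM after PBMCsec and 113 ± 14.4 CPM after vehicle in FBs (log2 difference of 0.48 ± 0.22). The log2 difference of Ptges3 was 0.22 ± 0.20 in HFs, 0.33 ± 0.26 in DCs and Macro, -0.02 ± 0.26 in KCs and -0.09 ± 0.23 in T cells. Ptgfr, the prostaglandin F receptor, was at 31.4 ± 3.3 against 27.0 ± 16.4 CPM in FBs (0.12 ± 0.33). Neither gene had an adjusted p under 0.05 (edgeR).

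Slco2a1, the prostaglandin uptake carrier, was at 79.3 ± 33.1 against 53.0 ± 41.2 CPM in HFs (1.03 ± 0.45), where it and Akr1c18 were the 2 of 18 list genes with an unadjusted edgeR p under 0.05. In KCs it was at 82.0 ± 23.1 against 99.3 ± 58.1 CPM (-0.30 ± 0.35). Abcc4, an exporter of prostaglandins, was at 13.2 ± 5.6 against 8.84 ± 4.28 CPM in FBs (0.24 ± 0.38). The log2 difference of Abcc4 was -0.15 ± 0.37 in KCs and -0.52 ± 0.39 in DCs and Macro. Neither carrier was called in any class.

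In DCs and Macro, Tbxas1, thromboxane synthase, was at 64.8 ± 31.4 against 52.1 ± 22.0 CPM (0.51 ± 0.39), and Alox5, the 5-lipoxygenase, at 76.7 ± 30.7 against 138 ± 68.5 CPM (-0.71 ± 0.35). Alox5ap, which presents arachidonic acid to Alox5, was at 795 ± 157 against 986 ± 133 CPM (-0.30 ± 0.19). Ptges2, a further prostaglandin E synthase, was at 23.8 ± 3.32 against 22.9 ± 15.7 CPM in HFs (-0.21 ± 0.31). The log2 difference of Ptges2 was 0.19 ± 0.32 in FBs and 0.55 ± 0.37 in KCs. Ptgir, the prostacyclin receptor, could be tested in all kept cells alone, at 8.61 ± 5.50 against 6.63 ± 3.83 CPM (0.50 ± 0.58). Ptger1, Ptgdr and Ptgdr2 had too few counts for the test in every class.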

How the data were processed

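Counts per gene and barcode were deposited by the authors as filtered matrices of raw UMI counts, without normalization, with 31053 genes per library. The submitters' processing notes name Cell Ranger 3.0.2 and mm10, and the methods state a sort for viable cells. Cells were kept as in the study's methods, with between 500 and 4000 genes, no more than 20000 UMIs and a mitochondrial share of no more than 5%, a limit that removes cells rich in mitochondrial transcripts. Gm42418, Gm17056 and Gm26917 were left out, as in the study. No doublets were removed, since Scrublet (scanpy 1.11.5) called 13 of 6150 cells (0.211%). Leaving out the 5% of cells with the highest doublet score was an alternative.

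Cells were integrated by library and clustered in Seurat 5.3.0 (2000 variable features less the 9 genes and the pathway list, 30 dimensions, resolution 1). A cluster took a class name from at least 3 markers found in at least 25% of its cells at 2-fold the CPM of the other cells (prior of 10 CPM). The name was withheld where another class had more markers among the cluster's 10 leading genes. It was also withheld from clusters of low depth with no marker of the class among those genes. Clusters 22, 30 and 31 had at least 3 markers of a class and stayed unnamed in this way. UMIs were summed per library and class, and classes with at least 10 cells in at least 3 libraries of each group were tested. ECs met this, and 1 gene was called in them, but none of the 9 genes had enough counts there. The main test was edgeR 4.0.16 (TMM, filterByExpr, quasi-likelihood, no block, Benjamini-Hochberg over all genes tested), and DESeq2 1.42.0, other filters, pseudocounts and clusterings, and libraries left out were alternatives. Permutation tests of treatment, within a class or between 2 classes, used log2 CPM with a prior of 2 counts. Those inside a cluster used log2 of unscaled CPM + 10, and those of a cluster's share used percentages of cells. The smallest two-sided p of 4 against 4 libraries is 0.0286. The SE of an edgeR log2 difference was its size divided by the square root of the F statistic of the test. The scripts were tested on simulated counts. Python 3.11.15, scipy 1.17.1 and R 4.3.3 were used.

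The 9 genes, the pathway list and the marker lists were chosen with earlier results of these data known. Genes named beside the 9 were any called pathway genes, 15 fixed partners and the 3 genes of nearest cluster pattern (clusters of at least 20 cells, genes reaching 50 CPM). Leading genes of clusters, Cbr2 and Akr1c18 were named after their values were seen. In GENCODE, Ptges overlaps the processed pseudogene Gm13400 on its own strand, and Hpgd overlaps Gm45540. Reads could be split or discarded there only if these overlapping genes were in the reference used for counting, which was not checked.

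Whether equal library numbers pair libraries was checked by correlating deviations from the group mean across genes. The 4 correlations were 0.33, 0.15, 0.20 and 0.43 in T cells and 0.29, 0.30, 0.47 and 0.57 in all kept cells, over 0.1 for each number, and at least 1 was lower in each other class. Libraries with unequal numbers were not compared in this way, so these values cannot show that equal numbers are pairs. With the number as a block, 14 genes were called in T cells, none of them a prostaglandin gene, and 0 in all kept cells.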

Additional observations from a re-analysis of the deposited data

Results flagged for a closer look

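In 8 of 54 groups of 4 libraries (gene, class and treatment), 1 library stood apart from the other 3 by Dixon's 95% criterion. For independent, normally distributed values this criterion would mark about 1 group in 20. These values are CPM of libraries of unequal size, and all kept cells include the other classes. The count can therefore not be set against that rate. Vehicle library 2 was far above the other vehicle libraries for Ptges in FBs (163.7 CPM against 66.1 to 78.5), for Ptges in all kept cells (65.2 CPM against 33.7 to 37.9) and for Ptger4 in all kept cells (95.5 CPM against 36.0 to 43.2). This library had 208 kept cells and 21 FBs. Vehicle library 1, with 151 kept cells and 10 HFs, 7 of them in HF cluster 3, stood above the others in HFs for Ptgs1 (51.8 CPM against 0 to 2.02) and for Ptges (41.4 CPM against 3.45 to 8.76). PBMCsec library 2, with 313 kept cells, was above the other PBMCsec libraries for Ptges in HFs (45.1 CPM against 10.3 to 15.5), for Ptger3 in FBs (46.3 CPM against 12.6 to 16.3) and for Ptger3 in all kept cells (15.4 CPM against 5.25 to 6.80). All 8 values came from the 3 smallest libraries of the series, and the part of library size in them was not tested. None of 19 tests between classes passed the adjustment, which a single test could not do by itself with these libraries.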

How the results depend on the processing

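Of 779 recomputed results, 738 were counted as unchanged. These include 49 treatment differences that changed sign from a value within its own SE. Apart from these, a treatment difference or an order of neighbouring classes counted as unchanged if its sign and its call stayed, whatever its size. An order was judged on the same pair of classes throughout. A change of the leading class, as for Ptger3 with the mitochondrial limit of 10%, was therefore not counted. The count of genes called, 0 with edgeR in each class where a prostaglandin gene was tested, rose with DESeq2 to 5 in KCs, 2 in HFs, 2 in T cells, 7 in DCs and Macro and 10 in all kept cells, and without the filter on low counts to 8 in KCs, 35 in T cells and 104 in DCs and Macro. With the replicate block 14 genes were called in T cells and 5 in DCs and Macro. The block changed no other call in these classes. Leaving out 1 library gave 0 to 5 in KCs (5 without PBMCsec 3), 0 to 1 in HFs (1 without PBMCsec 4), 0 to 2 in T cells (2 without PBMCsec 4) and 0 to 1 in DCs and Macro (1 without vehicle 2). Libraries 1 and 2 alone gave 2 in FBs, 3 in KCs and 7 in DCs and Macro, and libraries 3 and 4 alone 1 in HFs and 1 in DCs and Macro. DCs and Macro had 1 call with the mitochondrial limit of 10% and 2 without the cells of highest doublet score. Of the 9 genes, 8 were tested in DCs and Macro without the filter, and edgeR called 2, beside 104 of all 14851 genes. These were Ptgs1 (-1.11, adjusted p = 0.0037) and Ptgs2 (1.88, adjusted p = 9.56e-05). In libraries 1 and 2 alone 1 of 2 tested was called, Ptgs1 (-2.18, adjusted p = 0.0398), beside 7 of 4244 genes. For Ptgs2, 1 cell held 113 of the 544 UMIs of DCs and Macro, and with the filter the exact permutation test gave p = 0.571. Over the libraries left out in turn, with the filter, Ptgs1 in DCs and Macro ranged from -1.41 to -0.82 and Ptgs2 from 1.13 to 2.43.

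Directions turned for Ptger4 in KCs without vehicle library 2 (0.14) and in libraries 3 and 4 alone (0.22), so that leaving out 1 library gave -0.89 to 0.14. They also turned for Ptgs1 in HFs with DESeq2 (-0.00070), in all kept cells in libraries 3 and 4 alone (0.14) and in DCs and Macro inside cluster 18 with at least 10 cells (0.14). Ptges was higher in FBs than in KCs with the limit of 10% (-0.093), and Ptger2 lower in ILC2 than in ECs without PBMCsec library 3 or in the vehicle libraries alone (-0.12 for both; -0.12 to 1.08 over the libraries left out). The causes were not tested. Of 424 recomputed treatment differences 53 changed sign, 49 of them from values within their SE. Thinning to 1000 UMIs lowers a share by its construction: Ptgs1 in DCs 19.9%, Ptges in KCs 8.04%, Ptgis in FBs 6.49%, Hpgd in FBs 8.92%, Ptger2 in ILC2 1.16%, Ptger3 in FBs 1.55% and Ptger4 in KCs 9.14%; 73 of 3320 PBMCsec and 48 of 2830 vehicle cells were too shallow.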

Other observations

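The genes whose pattern over 36 clusters was nearest were Pkib (r = 0.67), Wnk2 (0.66) and Acsl5 (0.65) for Ptgs1, and Vegfa (0.79), an angiogenic factor, Rab32 (0.73) and Ehd1 (0.70) for Ptgs2. They were Rab30 (0.88), Epb41l3 (0.84) and Hoxc4 (0.84) for Ptges. For the receptors they were Hilpda (0.66), Pparg (0.66) and Picalm (0.63) for Ptger2, Cmklr1 (0.70), a receptor of chemerin, Tnn (0.68) and Coch (0.66) for Ptger3, and Tnfrsf18 (0.70), Gata3 (0.69) and Arf6 (0.68) for Ptger4. Clusters share libraries and differ in depth, so these values describe likeness only.

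Barcodes that pass the mitochondrial limit but not the limits on genes or UMIs held 47.4% of the Ptgis UMIs and 44.8% of the Hpgd UMIs, against 30.1% of the UMIs of all genes. Ptgs2 had the largest kept share of the 9 genes, 44.9%.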
